A study of Homo sapiens with 12 samples.

Results

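The regions described here are stretches of the genome where FoxK1 peaks were called after insulin and not without it. Peaks of all 6 deposited lists that shared at least 1 bp were merged into 68127 regions. A region was taken when at least 2 of the 3 insulin libraries and none of the 3 untreated libraries had a peak in it. This left 2848 regions, 4.18% of the 68127, which are called insulin-only regions below. The rule uses the peak calls themselves, so the number, the strength and the one-sidedness of these regions are descriptions and were not tested. The mirror rule, at least 2 untreated libraries and no insulin library, gave 577 untreated-only regions, 0.847% of the 68127.

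FoxK1 was immunoprecipitated with its bound DNA from HepG2 cells, a hepatocyte-like line grown from one human liver carcinoma, and the DNA was sequenced. The insulin group received 100 nM insulin for 20 min after 16 h without serum, and the untreated group had the same 16 h without serum and no insulin. Each group has 3 libraries with 1 peak list each, and 6 input libraries were not analysed here. Nothing in the labels says that the libraries came from separate cultures. Peak lists hold no expression values, so the identity of the cells was not checked against marker genes.

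FoxK1 is a forkhead transcription factor that binds DNA through a winged-helix domain and recruits corepressors to many of its target genes. In hepatocytes insulin signalling through PI3K and AKT moves FoxK1 into the nucleus, the opposite of its effect on FoxO1, which leaves the nucleus. FoxK1 is known for control of autophagy, glycolysis and mitochondrial genes. A peak is a place where a caller found more immunoprecipitated fragments than its estimate of the local background, and a place that narrowly misses the threshold is absent from a list. Absence of a peak is therefore not absence of binding.

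The insulin lists held 48208, 45057 and 27503 peaks in replicates 1, 2 and 3, and the untreated lists held 44687, 31668 and 26082. The depth of the libraries is unknown, because a peak list does not state how many reads were sequenced. Both replicate 3 lists were the shortest of their treatment. They also stood apart in background, where 29.7% of insulin replicate 3 peaks and 33.3% of untreated replicate 3 peaks sat at the lowest value their list reached. In the remaining 4 lists this share did not exceed 1.32%.

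The insulin-only regions came mostly from one pair of libraries. Of the 2848, 2117 (74.3%) were called in insulin replicates 1 and 2 and not in replicate 3. Another 268 (9.41%) were called in replicates 1 and 3 only, 207 (7.27%) in replicates 2 and 3 only, and 256 (8.99%) in all 3, which is 0.376% of all regions. Insulin replicate 1 called 92.7% of them, replicate 2 called 90.6% and replicate 3 called 25.7%. Among the 577 untreated-only regions, 343 (59.4%) came from replicates 1 and 2 only and 24 (4.16%) from all 3, which is 0.0352% of all regions. Set against what each treatment could have given, the insulin-only regions were 7.70% of the 36996 regions called in at least 2 insulin libraries, and the untreated-only regions were 1.94% of the 29726 called in at least 2 untreated libraries.

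A single untreated library decided many of the exclusions. There were 6673 regions called in at least 2 insulin libraries and in exactly 1 untreated library, and that library was untreated replicate 1 in 5435 of them (81.4%), replicate 2 in 811 and replicate 3 in 427. Without untreated replicate 1 the rule took 8332 regions in place of 2848. On the other side, 1674 regions were called in at least 2 untreated libraries and exactly 1 insulin library, which was insulin replicate 2 in 969, replicate 1 in 593 and replicate 3 in 112. Without insulin replicate 1 the rule took 460 regions and without insulin replicate 2 it took 548, since both remaining insulin libraries then had to call a region and one of them was replicate 3.

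The same count was made for every way to set 3 libraries against the other 3. With all deposited peaks, insulin against untreated gave 2848 and 577 regions, a total of 3425. The other 9 splits gave totals between 2997 and 10287, and 5 of them were above 3425. The highest put insulin replicates 1 and 2 with untreated replicate 1, against both replicate 3 libraries and untreated replicate 2, and gave 9938 and 349. The 5 other splits that keep the replicate 3 libraries apart, as the treatment split does, gave totals between 2997 and 3449. Their larger sides held between 2336 and 2700 regions, all below 2848. In all 10 splits the side with more peaks had more regions of its own. For example, insulin replicates 1 and 3 with untreated replicate 1 held 120398 peaks and had 2690 regions of their own, against 759 on the other side with 102807 peaks, while the insulin lists held 120768 peaks and the untreated lists 102437. Such regions are formed from the same peaks, so this agreement was in part fixed in advance. List length and treatment cannot be told apart in the treatment split, and neither was tested as a cause of the imbalance.

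**Figure D1:**
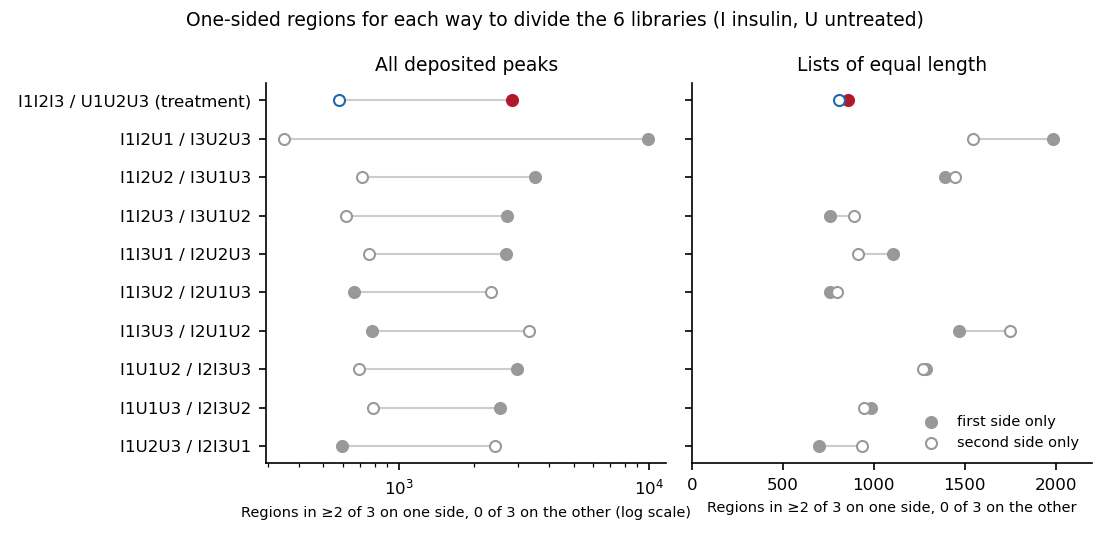
Number of regions called in at least 2 of 3 libraries on one side of a split and in none on the other, for all 10 ways to divide the 6 libraries, with all peaks (left, log axis) and with 26082 peaks per list (right, linear axis). The treatment split is in colour, with filled red for insulin and open blue for untreated. It gave 2848 and 577 regions with all peaks, and 860 and 807 with equal lengths.

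With each list cut to its 26082 strongest peaks by −log10 q, the length of the shortest, 860 regions were insulin-only and 807 were untreated-only. These are 1.99% and 1.87% of the 43254 regions that the cut lists formed. Calls in all 3 libraries of one treatment and none of the other numbered 104 for insulin (0.24%) and 83 for untreated (0.192%). The ratio of insulin-only to untreated-only regions was 1.07, against 4.94 with all peaks. With equal lengths the other splits gave larger sides between 801 and 1987, and 8 of the 9 were above 860. Ranking by fold enrichment in place of −log10 q gave 1072 insulin-only and 1074 untreated-only regions. In 8 of 10 splits the side that had more peaks before the cut still had more regions of its own after it. A cut at −log10 q of at least 5 in every list gave 2281 insulin-only and 201 untreated-only regions. Values of −log10 q grow with depth, so this cut is not the same strength in each list. At regions of all 6 libraries the median −log10 q was 40.3, 50.4 and 13.0 in insulin replicates 1, 2 and 3. It was 39.0, 18.6 and 10.8 in untreated replicates 1, 2 and 3. Without replicate 3 of both treatments and with no cut there were 2721 insulin-only and 392 untreated-only regions. The size of the imbalance thus depended on which cut was made.

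The 860 regions are largely not the same places as the 2848. Only 176 of the 2848 (6.18%) kept their peaks in at least 2 insulin lists after the cut, 859 kept a peak in 1 list and 1813 (63.7%) kept none. Of the 860, 684 (79.5%) overlapped a peak of a full untreated list that the cut had removed, mostly from untreated replicate 1, whose full list called 658 of them. The remaining 176 were called in no full untreated list. For the 807 untreated-only regions of the cut lists, 725 (89.8%) were called in a full insulin list and 82 were not. The cut removed 45.9%, 42.1% and 5.17% of the peaks of insulin replicates 1, 2 and 3, and 41.6%, 17.6% and 0% of untreated replicates 1, 2 and 3. It thus acted most on insulin replicates 1 and 2 and on untreated replicate 1. With all peaks, insulin replicates 1 and 2 had called 92.7% and 90.6% of the insulin-only regions. Untreated replicate 1 had called 92.9% of the untreated-only regions. The depth of the libraries is unknown, so the cut does not show what untreated libraries of another depth would have called. The median background at peaks, worked out from the deposited fold and p, was 3.75, 5.96 and 3.23 in insulin replicates 1, 2 and 3. It was 8.41, 7.70 and 3.98 in untreated replicates 1, 2 and 3.

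Libraries that took no part in the choice give a measure that the rule did not fix. Regions called in 2 insulin libraries and in neither of 2 untreated libraries were looked up in the remaining library of each treatment, for each of the 9 pairs that can be held out. These 9 looks share libraries and are not independent, and a pair of single libraries allows no test between treatments. With both replicate 3 libraries held out, 2721 regions were chosen from replicates 1 and 2. Of these, 399 (14.7%, exact binomial interval 13.4 to 16.0% at 95%, counting error only) were called in insulin replicate 3 and 339 (12.5%, 11.2 to 13.8%) in untreated replicate 3. Regions called in 1 insulin and 1 untreated library of the same 4 were called more often in insulin replicate 3 by 1.31 points, beside 2.21 points for the insulin-chosen regions.

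In all 9 pairs the longer of the held-out lists called the larger share, and list length was not tested as the cause. Holding out insulin replicate 1 and untreated replicate 1, the call share of 1656 chosen regions was 75.7% in the insulin library and 72.2% in the untreated one. For insulin replicate 2 and untreated replicate 1 it was 72.4% and 69.9% of 1821. Where the held-out untreated library was replicate 2 or 3 and the insulin library was replicate 1 or 2, the insulin share was between 30.6 and 33.6 points higher. Where insulin replicate 3 was held out with untreated replicate 1, the insulin share was 17.2% and the untreated share 68.0%, a difference of -50.9 points over 7455 regions. The mean over the 9 pairs was 8.24 ± 27.8 points (SD over the pairs), and it was 14.1 ± 30.3 points for regions called in 1 library of each treatment. With lists of equal length the mean was -8.07 ± 14.6 points for the insulin-chosen regions and 2.07 ± 11.5 for those called in 1 library of each. The held-out insulin library was then the higher in 2 of 9 pairs. Both means for the insulin-chosen regions were smaller than the spread between the pairs. Regions chosen the other way, in 2 untreated and neither of 2 insulin libraries, were also called more often in the held-out insulin library, by 21.2 ± 23.8 points with all peaks and 12.5 ± 13.8 points with equal lengths. In the 3 pairs with the same replicate number the difference for insulin-chosen regions was 3.50, 33.6 and 2.21 points for replicates 1, 2 and 3 with all peaks, all towards insulin, and -1.71, 5.60 and 4.04 points with equal lengths. For regions called in 1 library of each treatment these pairs gave -0.858, 33.1 and 1.31 points with all peaks.

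**Figure D2:**
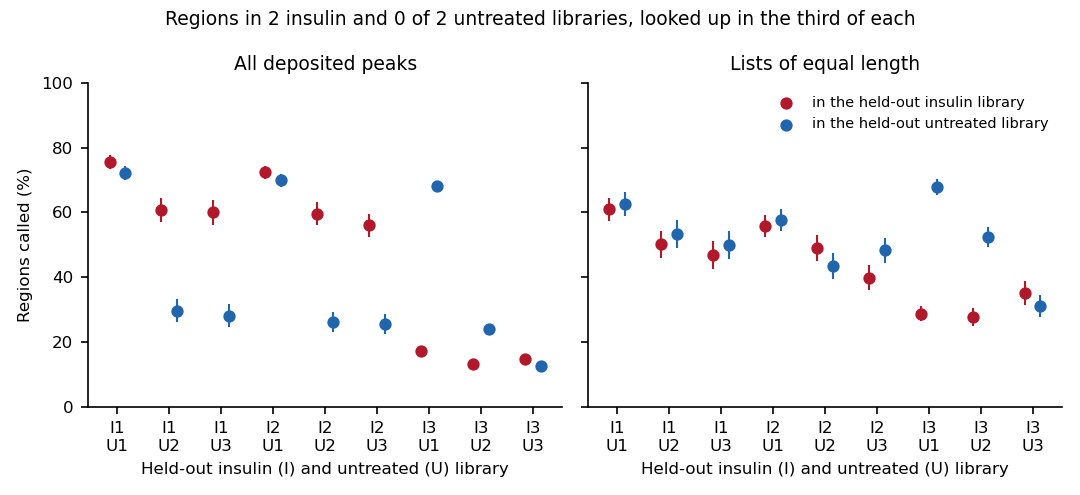
Share of regions called in a held-out insulin library (red) and a held-out untreated library (blue), for regions called in the 2 remaining insulin libraries and in neither remaining untreated library, with all peaks (left) and equal list lengths (right). Bars are exact 95% binomial intervals for counting error only. The red points lie above the blue ones in 7 of 9 pairs on the left and in 2 of 9 on the right.

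The insulin-only regions were weak in their own lists. Their strongest peak stood at a median percentile of −log10 q of 24.3, 20.4 and 19.6 in insulin replicates 1, 2 and 3, where 100 is the strongest peak of a list. The same medians were 21.1, 14.9 and 18.5 for the untreated-only regions in untreated replicates 1, 2 and 3. Only 87 of the 2848 (3.05%) had a mean percentile above 50 over the lists that called them, 2 were above 75 and none was above 90. None had a fold enrichment of at least 10 in every list that called it. The authors' fold enrichment, the summit over the background estimated there, had a median of 4.40, 3.84 and 3.55 at insulin-only regions, against 10.2, 9.33 and 6.19 at the 15887 regions called in all 6 libraries.

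These folds rest on few fragments. The number of fragments at a summit, worked out from the deposited fold and p, had a median of 17, 22 and 14 at insulin-only regions in insulin replicates 1, 2 and 3, and of 60, 82 and 29 at regions of all 6 libraries. The fewest fragments of any peak were 6, 8 and 9 in those lists. The median background at insulin-only regions was 0.823, 0.814 and 0.846 times the median of each insulin list. Untreated-only regions lay at 0.614, 0.623 and 0.858 times the median background of untreated replicates 1, 2 and 3.

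Within the insulin-only regions, those called in more libraries stood higher. The 256 called in all 3 had median percentiles of 31.9, 22.9 and 23.6, against 23.6, 20.3 and 17.6 for the 2592 called in exactly 2. Just outside the rule, the 14066 regions of a single insulin library had medians of 14.3, 11.6 and 10.0 in replicates 1, 2 and 3. The 6673 regions with at least 2 insulin and exactly 1 untreated library had medians of 37.5, 33.4 and 26.4. The median percentile thus rose with the number of libraries that called a region, on both sides of the rule. The median fold did not rise in every list. In insulin replicates 1, 2 and 3 it was 4.63, 3.83 and 3.76 at the 256 regions called in all 3. At the 2592 called in exactly 2 it was 4.36, 3.84 and 3.55.

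Each list was divided into 10 bins of about equal size by −log10 q. The share of insulin replicate 1 peaks that lay in insulin-only regions was 10.3% in the weakest bin, 12.4% in the next, 6.67% in the fifth and 0% in the strongest. In insulin replicate 2 these shares were 13.7%, 14.2%, 4.60% and 0%. In insulin replicate 3 they were 6.63%, 6.83%, 1.56% and 0.0364%, the last being 1 peak. Over whole lists, 5.50%, 5.73% and 2.66% of the peaks of insulin replicates 1, 2 and 3 lay in insulin-only regions, while 1.20%, 1.29% and 0.897% of the peaks of untreated replicates 1, 2 and 3 lay in untreated-only regions.

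**Figure D3:**
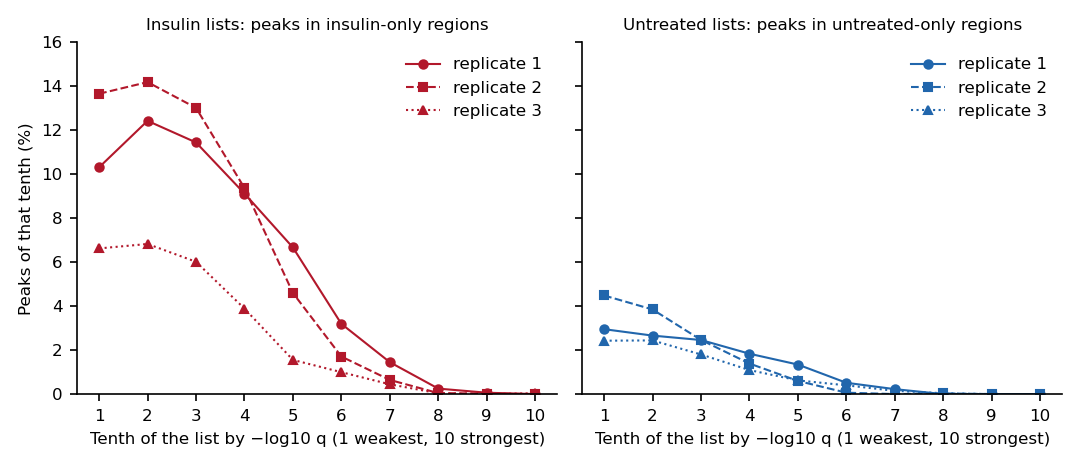
Share of the peaks (%) in each of 10 bins of a list, ordered by −log10 q from weakest to strongest, that lay in insulin-only regions (left, 3 insulin lists) or in untreated-only regions (right, 3 untreated lists). In the insulin lists the share peaked in the bin next to the weakest, at 12.4%, 14.2% and 6.83%, and in the strongest 3 bins no list exceeded 0.249%.

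Insulin-only regions were narrower than regions of all 6 libraries and wider than regions of a single library. The median width was 324 bp for regions of a single insulin library and 350 bp for those of a single untreated library. That of insulin-only regions was 453 bp (quartiles 383 and 564), that of untreated-only regions 495 bp, and that of regions of all 6 libraries 1092 bp. A merged region grows with the peaks it holds, so single peaks are the better measure. At regions of a single insulin library the strongest peak had a median width of 287, 359 and 340 bp in insulin replicates 1, 2 and 3. The strongest peak had a median width of 314, 386 and 357 bp in insulin replicates 1, 2 and 3 at insulin-only regions, and of 403, 509 and 376 bp at the 18261 regions called in at least 2 insulin and at least 1 untreated library but not in all 6. Within the same bin of strength the peak at insulin-only regions was the narrower in 17 of 20 bins that held at least 20 regions of each kind (7 of 7 in replicate 1, 7 of 7 in replicate 2 and 3 of 6 in replicate 3). These bins are not independent, since 2373 insulin-only regions were called in both replicates 1 and 2. The rule also drops each region that an untreated peak touches, and a wider region is more easily touched. The narrower width was thus in part fixed in advance.

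The rule asks only that peaks overlap. By the median, the summits of the insulin libraries were somewhat farther apart in these regions than in those with untreated calls. The sets were not matched for strength here. Between insulin replicates 1 and 2 the median distance of the summits was 44 bp over 2373 insulin-only regions, 33 bp over 17098 regions also called in some untreated libraries, and 24 bp over the regions of all 6. Within 50 bp lay 54.2%, 65.5% and 73.9% of the summit pairs of these 3 sets. With replicate 3 the median distance at insulin-only regions was 64 bp to replicate 1 and 63 bp to replicate 2. Wide gaps went the other way. Summits of replicates 1 and 2 lay over 500 bp apart in 0.969%, 2.17% and 2.79% of the same 3 sets. The strongest peaks of insulin replicates 1 and 2 overlapped by a median of 281 bp at insulin-only regions. They failed to overlap in 0.0843% of these, 0.480% of those with some untreated calls and 0.359% of those of all 6. As a description over regions that share both libraries, the Spearman correlation of the percentiles in insulin replicates 1 and 2 was 0.38 at insulin-only regions, where the range of strength is narrow, and 0.87 at regions of all 6.

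By their medians, insulin-only regions lay about as far from sites found in every library as regions with at least 2 insulin calls and some untreated calls, and nearer than regions of a single insulin library. The median gap from an insulin-only region to the nearest region called in all 6 libraries was 22.6 kb, and 8.36% lay within 1 kb, 31.6% within 10 kb and 17.4% beyond 100 kb. The 18261 regions with at least 2 insulin and some untreated calls had a median of 21.6 kb, and regions of all 6 libraries lay a median of 20.2 kb from the next of their kind. Untreated-only regions had a median of 28.6 kb, and regions of a single insulin library 28.9 kb. By library, medians were taken in each bin of strength with at least 20 regions. For single-library regions they ran from 27.1 to 57.1 kb in insulin replicate 1, 21.35 to 31.3 kb in replicate 2 and 38.1 to 53.5 kb in replicate 3. For insulin-only regions they ran from 18.6 to 27.0, 19.7 to 26.2 and 15.4 to 26.6 kb, so the ranges overlapped in replicate 2. Between insulin-only regions and those with untreated calls in the same bin of strength, the insulin-only median was the larger in 10 of 20 bins. The 256 regions called in all 3 insulin libraries lay closer, at a median of 14.1 kb, with 15.2% within 1 kb. No test was made of these differences, since neighbouring regions are not independent.

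**Figure D4:**
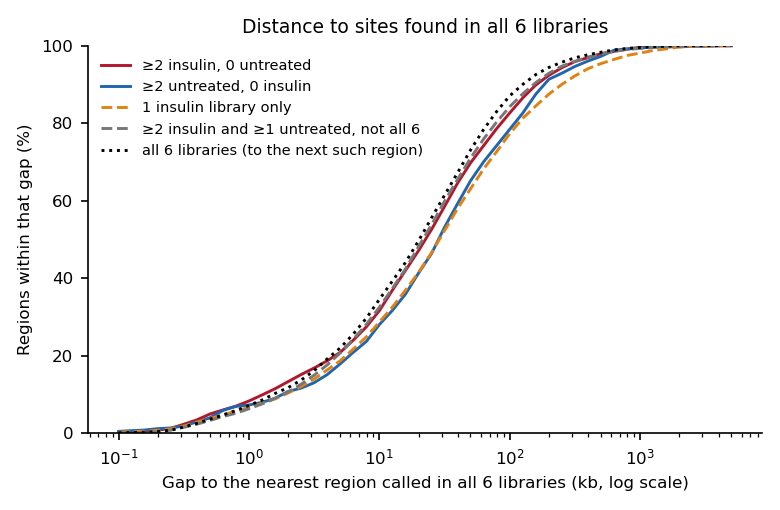
Cumulative share of regions by the gap to the nearest region called in all 6 libraries, on a log axis in kb. The curve of insulin-only regions (red, median 22.6 kb) runs beside that of regions with both insulin and untreated calls (grey, 21.6 kb), while untreated-only regions (blue, 28.6 kb) and regions of a single insulin library (orange, 28.9 kb) lie farther out.

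A minority of insulin-only regions had an untreated peak within 1 kb. The same share over all regions was not computed. The nearest peak of any untreated library lay within 500 bp of 243 regions (8.53%) and within 1 kb of 521 (18.3%), and the median gap was 6.03 kb. By library the median gap was 7.03 kb to untreated replicate 1, 10.3 kb to replicate 2 and 14.6 kb to replicate 3. Untreated-only regions had an insulin peak within 500 bp at 8.49% and within 1 kb at 16.3%, with a median gap of 6.06 kb.

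Over the chromosomes the shares of insulin-only regions were near those of the sites of all 6 libraries on the gene-rich chromosomes, where untreated-only regions were few, as the plot by chromosome shows. Chromosomes 16, 17, 19 and 22, which are rich in genes, were looked at together after the counts had been seen. They held 555 of the 2842 insulin-only regions on chromosomes 1 to 22 and X (19.5%), 49 of 573 untreated-only regions (8.55%) and 18.8% of the regions of all 6. With lists of equal length the shares were 20.3% of insulin-only and 14.9% of untreated-only regions. Single libraries differed in this share as well. Of the regions called in untreated replicate 1 alone, 9.37% lay on these 4 chromosomes, against 15.6% for untreated replicate 2 alone, 11.2% for untreated replicate 3 alone, and 16.3%, 17.6% and 11.9% for insulin replicates 1, 2 and 3 alone. The part of single libraries in this difference was not tested.

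**Figure D5:**
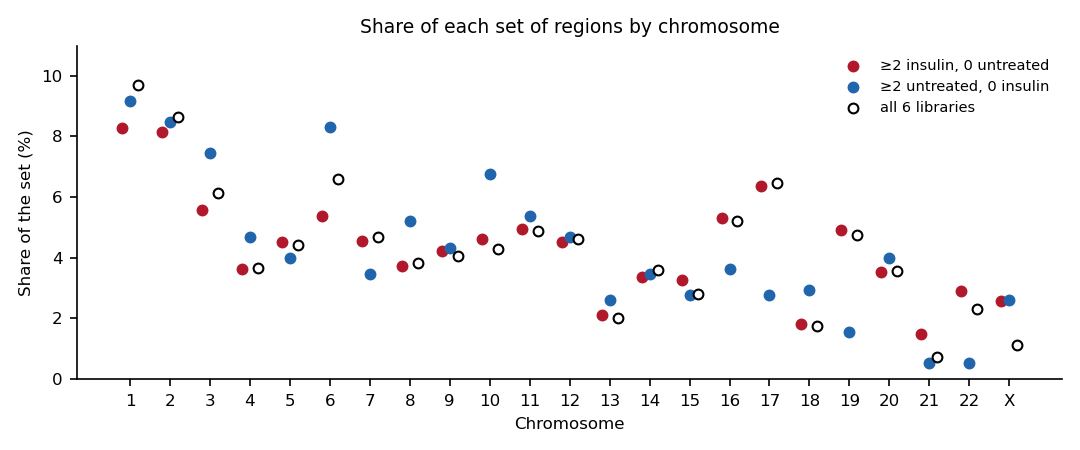
Share of insulin-only regions (red), untreated-only regions (blue) and regions of all 6 libraries (open) on each chromosome, each set summing to 100% with its few regions on other contigs. On chromosomes 17, 19 and 22 the shares of insulin-only regions were 6.36%, 4.92% and 2.91%, and those of untreated-only regions 2.77%, 1.56% and 0.520%.

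The ratio of insulin-only to untreated-only regions was 4.94 over the genome and differed widely between chromosomes. It was highest on chromosome 22, with 83 and 3 regions, followed by chromosome 19 with 140 and 9 and chromosome 21 with 42 and 3. It was lowest on chromosome 18, with 52 and 17, and on chromosome 6, with 153 and 48. With equal lengths chromosome 22 had 22 and 16, chromosome 19 had 49 and 31, and chromosome 21 had 9 and 3. The counts were thus nearer to each other there, though chromosome 21 then had the highest ratio of any chromosome, on few regions. Untreated-only regions became the more numerous on chromosome 18, with 13 and 24, and on chromosome 6, with 52 and 55.

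Set against the sites of all 6 libraries, insulin-only regions were most frequent on chromosome X, with 73 beside 180 such sites, or 0.406 per site. Chromosome 21 followed with 42 beside 114 (0.368) and chromosome 22 with 83 beside 365 (0.227). The median chromosome had 0.182. The fewest were on chromosome 6 (0.146), chromosome 1 (0.153) and chromosome 3 (0.163). On chromosome X the untreated-only regions were also frequent for the number of shared sites, 0.0833 per site against 0.0363 over the genome. As a share of all regions with at least 2 insulin calls, chromosome 21 had 11.6% and chromosome X 9.19%, and the other chromosomes had between 6.73% and 8.79%.

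On chromosomes 2, 6, 14, 16, 17 and 20, a set picked from earlier results of these data for its replicate 3 calls, lay 32.1% of the insulin-only regions, 30.7% of the untreated-only regions and 34.1% of the regions of all 6. The share was 28.9% for regions of insulin replicates 1 and 2 only, 45.1% for replicates 1 and 3 only and 44.4% for replicates 2 and 3 only. For all 731 insulin-only regions with a call in insulin replicate 3 it was 41.3%. The set was picked for replicate 3 calls, so the higher shares with replicate 3 were in part fixed in advance. Regions of a single insulin library had a share of 36.1% and those of a single untreated library 42.4%.

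Insulin-only regions were scattered. Of 2698 windows of 1 Mb with any region, 1342 held at least 1 insulin-only region and 641 held exactly 1. The median gap from an insulin-only region to the next was 152 kb, and 8.22% had another within 10 kb. Windows with 5 or more numbered 107 and held 22.2% of them. The fullest windows held 10 each, at chromosome 17, 79000001 to 80000000, chromosome 11, 65000001 to 66000000, and chromosome 20, 48000001 to 49000000. These windows also held 36, 30 and 22 regions of all 6 libraries, and 0, 2 and 1 untreated-only regions. Windows with 20 or more regions of all 6 libraries held 15.6% of the insulin-only regions, 8.90% of the untreated-only regions and 18.5% of the regions of all 6. The last share follows in part from how these windows were picked. The same windows held 13.9% of the regions with at least 2 insulin and some untreated calls but not all 6. For regions of a single insulin library the share was 12.7%.

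The single strongest insulin-only region was atypical. It lay on the unplaced contig chrUn_gl000220, 117695 to 118394, which holds ribosomal RNA genes. It reached percentiles of 80.3, 62.8 and 97.7 in insulin replicates 1, 2 and 3, with folds between 2.67 and 3.42. Its summit held 168, 161 and 396 fragments, so both the fragments and the background were high there. Another insulin-only region on the same contig, 134103 to 134586, had folds of 2.33, 2.12 and 1.49. In all, 6 of the 2848 lay outside chromosomes 1 to 22 and X.

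On the numbered chromosomes the strongest region called in all 3 insulin libraries lay on chromosome 9, 137261429 to 137262070. Its summit held 43, 64 and 19 fragments in insulin replicates 1, 2 and 3, at folds of 11.4, 12.8 and 5.47. Its nearest untreated peak was 4.33 kb away. Chromosome 5, 5828685 to 5829180, had 33, 36 and 24 fragments and stood alone, 405 kb from the nearest site of all 6 libraries and 333 kb from any untreated peak. Chromosome 2, 238631895 to 238632722, had 45, 56 and 24 fragments, with an untreated peak 1.24 kb away. The other 6 of the 9 on numbered chromosomes had between 16 and 64 fragments. At 3 of the 10 strongest an untreated peak lay within 1 kb, 452 bp away at chromosome 17, 36858082 to 36859355, and 501 bp away at chromosome 16, 87894894 to 87895761, and at chromosome 1, 206808526 to 206809152.

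The 10 strongest regions called in exactly 2 insulin libraries all came from replicates 1 and 2. The first lay on chromosome 16, 8617685 to 8618121, 2.90 kb from a site of all 6 libraries. Its summit held 77 and 81 fragments in replicates 1 and 2, at folds of 8.02 and 5.36. The next was chromosome 3, 41412230 to 41413207, with folds of 11.4 and 9.14. Chromosome 7, 72756526 to 72757090, had folds of 9.79 and 6.78, with an untreated peak 807 bp away. The fourth lay on chromosome 17, 14233667 to 14234206, at folds of 9.56 and 8.14. The fifth, on chromosome 16 from 16325890 to 16326556, reached 7.46 and 5.58. The remaining 5 were on chromosomes 5, 9, 7, 14 and 19, and folds of all 10 lay between 5.36 and 11.4. The widest of them, chromosome 9, 132371934 to 132373572, spanned 1639 bp. The one nearest to an untreated peak, at 329 bp, was chromosome 7, 1569919 to 1570500.

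The insulin-only regions farthest from any site of all 6 libraries were mostly on chromosome X. The first, 2880317 to 2880766, lay 6.55 Mb from such a site but only 1.24 kb from an untreated peak, and had 11 and 15 fragments in insulin replicates 1 and 2. The region at 4158763 to 4159243 lay 5.27 Mb from such a site and 424 kb from any untreated peak, with 15 and 11 fragments. Those at 115099528 to 115099824 and 27462485 to 27463028 lay 2.76 and 2.75 Mb away. The fifth was chromosome 3, 163497812 to 163498153, 2.36 Mb away and 719 kb from any untreated peak, with 15 fragments in insulin replicate 1 and 13 in replicate 3. No gene names were assigned to any region, because the annotation at hand is on another genome build.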

How the data were processed

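Peak lists of 6 FoxK1 libraries were analysed. The submitters' processing notes name hg19, MACS2, Bowtie2, SAMtools and fastp, without versions. The authors called each library by itself, as peak names show. Which control and which threshold they set is not stated. The lists themselves show where calling stopped: the lowest −log10 p of each of the 6 lay between 3.002 and 3.005. In untreated replicate 3 the full list reached down to −log10 q of 0.771, so peaks with weak support also count as calls. As deposited, the fold is a linear ratio of summit over background. Deposited −log10 p and −log10 q values grow with depth. The deposited score equals 10 times −log10 p, with a tolerance of 1, in 100% of the 223205 peaks. These values were ranked only within a list, apart from the cut at −log10 q of at least 5. Medians of −log10 q, and of the background worked out from fold and p, are also printed list beside list.

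Regions, splits, held-out shares and distances (edge to edge) were computed in Python 3.11.15 with numpy 2.4.6, pandas 2.3.3, scipy 1.17.1 and matplotlib 3.10.9. Equal lists kept the 26082 strongest peaks. Whole fragments at a summit were solved from fold and p (Poisson tail, tolerance 0.0005, −log10 p up to 250) for at least 99.9968% of peaks per list. The merging, the rule and this solution were checked on simulated data.

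Named regions are the 10 strongest by mean percentile called in 3 of 3 and the 10 in exactly 2 of 3 insulin lists, the 5 farthest from shared sites, the 3 fullest 1 Mb windows and extreme chromosomes. Members and lists were chosen with earlier results of these data known. Promoter, gene-list and motif results planned on hg19 were not computed, since the tables at hand are on GRCh38. Alternatives were other strength cuts, merging rules, contigs and libraries left out. Coordinates are 1-based, hg19.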

Additional observations from a re-analysis of the deposited data

How the results depend on the processing

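The number of insulin-only regions (2848) stayed within 1.5 times in 10 of 17 alternatives. It was 860 with equal list length by −log10 q, 1072 by fold, 256 with 3 of 3 required, and 971 without replicate 3 in both treatments at equal length; leaving out each library gave 460 (without insulin replicate 1) to 8332 (without untreated replicate 1), since fewer untreated libraries make the rule easier to meet and fewer insulin libraries harder. Untreated-only regions (577) numbered 201 at −log10 q of at least 5, 24 with 3 of 3, 1074 with equal length by fold and 1004 with summits within 100 bp, and 64 (without untreated replicate 1) to 1574 (without insulin replicate 2) with each library left out; the cause of the 1004 was not tested. By fold at equal length the untreated-only count was the larger. The mean held-out difference (8.24 points) was 13.6 at −log10 q of at least 5, -8.07 and -9.25 with equal lengths by −log10 q and by fold, -50.9 with insulin replicate 3 and untreated replicate 1 held out, and -10.7 with insulin replicate 3 and untreated replicate 2. The median distance to sites of all 6 libraries (22573.5 bp, SD 958 over the insulin libraries) was 31520 at −log10 q of at least 5, 14101 with 3 of 3, 26803 and 31550.5 with equal lengths by −log10 q and by fold, 24883 merged within 500 bp and 28053 with summits within 100 bp, and 17288.5 to 21951.5 with each library left out, where the shared sites also change. The median width (453 bp) was 563 with 3 of 3, 521 and 510 with equal lengths, and 443 to 525 with each library left out. The share on chromosomes 2, 6, 14, 16, 17 and 20 (32.1%) was 25.5% with equal length by fold and 29.6 to 40.1% with each library left out. The share on chromosomes 16, 17, 19 and 22, a result chosen after seeing the data, lay between 17.8 and 20.2% in all 13 alternatives. No paired analysis was possible because none of the results comes from a test to which a block could be added, and the labels do not say that a replicate number marks a shared culture or day.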
